A study of Arabidopsis thaliana with 4 samples.

Results

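The stretch described here is a block of genomic tiles on the plates TA35 to TA51 of an array from Arabidopsis thaliana, on which the log ratio for the histone mark H4K20me1 was high. Its members were taken by name, as every tile on these 17 plates with a value in both replicates, which gave 1544 of the 21743 tiles with values (7.1%). The plates had been picked earlier because their median values were high in these same replicates, so the height of the stretch is given as a description, with no test. Tiles are named by plate, row (A to H) and column (01 to 12), and "next" means next in the order of these names. Genome positions, genes and sequences of the tiles are not used here, and 0 of the 1544 tile names matched a name in the gene table of the TAIR10.1 assembly.

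The IP was DNA immunoprecipitated with an antibody against H4K20me1, and the INPUT was unselected chromatin DNA. Both came from untreated seedlings of ecotype Col-0, which were 10 days old and had been kept at 22 °C in liquid culture with 16 h of light per day. IP and INPUT were hybridised together on 2-colour arrays, in 2 replicates named I and II, and each replicate was run on a pair of dye-swapped arrays. Whole seedlings were used, so a mark carried by few cells and a weaker mark in all cells cannot be told apart.

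H4K20me1 stands for histone H4 with a single methyl group on a lysine of its tail. In animals it is known for its link to chromosome compaction and the cell cycle. In Arabidopsis it has been described in heterochromatin, the condensed part of the genome that is rich in silent transposable elements.

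The columns of each dye swap held identical values, so there was 1 value per tile and replicate and n = 2 throughout. Whether the replicates came from separate cultures is not stated in the labels, so the spread between them may be technical. The log base is not stated. IP over INPUT is the likely direction, only because its upper tail over all tiles is the longer, and with the sign turned every high value here becomes a low one. Where a pair of values is given for a plate, row or tile, replicate I comes first and replicate II second. All values below are log ratios minus the median of all tiles in that replicate, so 0 stands for the median tile of the array. The number of arrays limits the precision.

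Across the stretch, most tiles lay above the median tile of the array. In replicate I the 1544 members ran from -1.07 to 2.46 with a median of 0.76, and 89.9% lay above 0, against 46.9% of the other 20199 tiles. In replicate II they ran from -1.20 to 2.05 with a median of 0.53, and 86.4% lay above 0, against 47.2% of the other tiles. Members and other tiles therefore overlapped widely in both replicates. The median of the members minus that of the other tiles was 0.80 in replicate I and 0.57 in II, a mean of 0.68 ± 0.166 (SD, n = 2).

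The stretch held a larger share of the high tiles than of the very highest. Of the top 10% of all tiles, 29.2% were members in replicate I and 25.5% in II. Of the top 1%, 17.9% were members in replicate I and 14.7% in II. The 5th percentile of the members was -0.19 in replicate I and -0.32 in II, so the stretch also held tiles well under the array median.

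In the order of names, the plates formed a low shoulder, a broad high part with a pair of dips, and an uneven end on TA51 and TA52. The shoulder was TA35 and TA36. TA35 had a median of 0.31 in replicate I and 0.27 in II, and TA36 had 0.23 and 0.15. These were the lowest of the 17 plates in both replicates, and they stood close to plates outside the stretch. TA34, just outside on one side, had 0.13 in replicate I and 0.019 in II, and TA52, just outside on the other, had 0.19 and 0.11. TA36, at 0.19 ± 0.0541 (SD, n = 2), was not above TA54 at 0.19 ± 0.0531 or TA55 at 0.20 ± 0.0559, which lie outside the stretch. The edge of the stretch on this side thus rested on 2 plates whose medians were nearer to those of the plates outside than to TA37.

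The high part began at TA37, whose median was 0.96 in replicate I and 0.74 in II. From there to TA45 the plate medians, averaged over replicates, stayed between 0.69 and 0.98. The highest was TA43, with 1.09 in replicate I and 0.86 in II (0.98 ± 0.162, SD, n = 2). TA37 and TA38 both followed at 0.85, and TA42 at 0.83. TA43 was the highest plate in both replicates, where TA37 had 0.96 and 0.74 and TA38 had 1.04 and 0.66. Its lead was not tested, and the SD of its replicates includes an offset between replicates that all plates shared. By means over tiles, TA38 came first at 0.928.

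**Figure D1:**
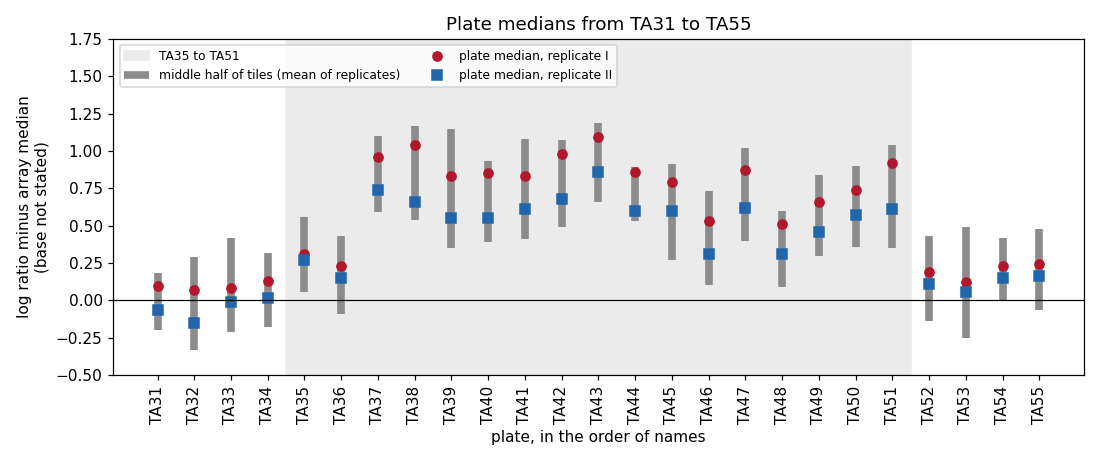
Plate medians of replicates I (circles) and II (squares) and the interquartile range of the tiles (bars, mean of replicates) for TA31 to TA55 in the order of names, as log ratios minus the array median. TA37 to TA51 stand above the plates on either side in both replicates, TA35 and TA36 hardly do, and TA46 and TA48 dip.

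Past TA45 the level was uneven. TA46 had 0.53 in replicate I and 0.31 in II, and TA48 had 0.51 and 0.31, while TA47 between them had 0.87 and 0.62. The last plates had higher medians, 0.66 and 0.46 on TA49, 0.74 and 0.57 on TA50, and 0.92 and 0.61 on TA51. By its median TA51 was thus as high as plates in the middle, and the next plate, TA52, was at 0.15 ± 0.0548 (SD, n = 2). All 17 plates had a higher median in replicate I than in replicate II, and the plate medians of the replicates correlated at r = 0.966 across the 17 plates. This correlation is a description, since the plates share the same arrays.

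Rows of 12 wells located the edges more closely. On the shoulder, row F of TA35 stood out with means of 0.91 in replicate I and 0.78 in II. It was followed by low rows: row H of TA35 had -0.015 in replicate I and -0.085 in II, and row B of TA36 had -0.23 and -0.24. Row H of TA36 had 0.40 in replicate I and 0.14 in II, and row A of TA37 had 0.80 and 0.63. The shoulder thus held a short high segment, set apart from the main part by more than a plate of lower values.

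At the far end, the largest step down on TA51 to TA53 was at nearly the same tile in both replicates. In replicate I the 24 tiles up to TA51F08 had a median of 1.05, against 0.29 in the 24 tiles after it. In replicate II the 24 tiles up to TA51F09 had 0.89, against 0.38 in the 24 tiles after it. The end was not clean. Row D of TA51, before the step, was already at 0.37 and 0.054, and row A of TA52 still averaged 0.66 in replicate I and 0.61 in II, before row E of the same plate at -0.25 and -0.34. High tiles ran on across the edge of the stretch, from TA51H09 with 0.98 and 0.65 to TA52A05 with 1.03 and 0.83. Between them, TA52A03 had 1.76 and 1.18. These tiles were chosen after their values were seen.

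A running median of 25 tiles with values, which passes over empty wells, was highest in both replicates from TA38G01 to TA39A03. It was level there, at 1.99 in replicate I and 1.67 in II. This levelness follows from the window, since each window centred in this block held the whole block. The median of such a window was the lowest tile of the block, TA38G06 in replicate I and TA38G10 in II. The level top thus marks no single tile as the peak. The 50% level used next rests on this sparse block. At 50% of the peak of their mean, the running median was first reached at TA37D08 and last at TA51F06, with 1279 tiles between these ends. The running median was at or above that level at only 230 of them, so it formed no plateau at this height. This counts positions of the running median, not tiles by their own values. From TA37 on, the lowest point of the running median was at TA47H11 in both replicates, with 0.097 in replicate I and -0.16 in II.

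**Figure D2:**
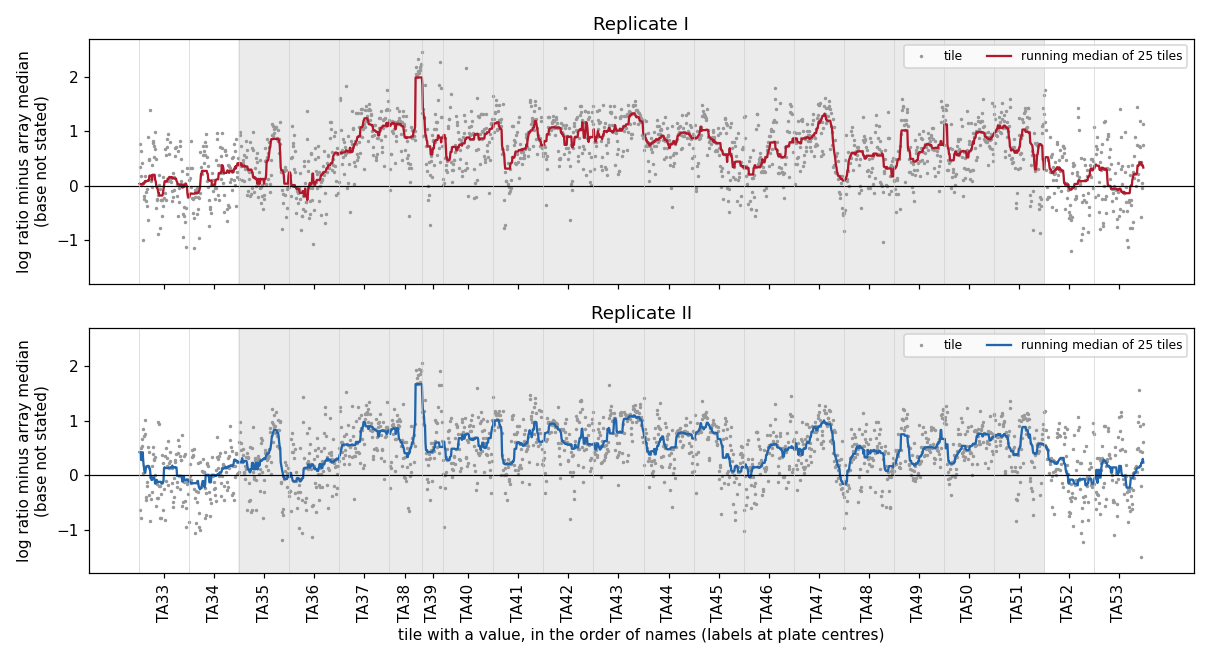
Single tiles (dots) and the running median of 25 tiles (line) from TA33 to TA53 in the order of names, for replicate I (upper panel) and replicate II (lower panel), as log ratios minus the array median, with TA35 to TA51 shaded. Both replicates show the short segment on TA35, the narrow peak from TA38G01 to TA39A03, with a running median of 1.99 and 1.67, the dip between TA47 and TA48 and the step down on TA51.

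The highest tiles did not lie on the plate with the highest median. All 14 members with a mean of at least 1.8 were on TA38 and TA39, 12 on TA38 and 2 on TA39, while the highest tile of TA43 had a mean of 1.43. TA38 and TA39 were also the plates with the fewest values, 62 and 42 tiles against 96 on each of the other 15 plates. On TA38 every well had a value up to E02, and 22 wells had none between E02 and G01.

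On TA38 the tiles on either side of that gap differed sharply. In rows G and H, 12 tiles ran from 1.99 to 2.33 in replicate I and from 1.67 to 1.94 in replicate II, with a mean of 1.97 ± 0.236 (SD of replicates, n = 2). In rows A to D, 48 tiles ran from -0.56 to 1.43 in replicate I and from -0.65 to 1.30 in replicate II, with a mean of 0.67 ± 0.251. The ranges of the 2 blocks did not overlap in either replicate. The 12 tiles were also nearly level, with an SD between tiles of 0.094, against 0.405 in rows A to D. The block was chosen after its values were seen.

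Single tiles of this block show how closely they stood. TA38G07 had 2.33 in replicate I and 1.84 in II, TA38H11 had 2.22 and 1.93, and TA38H12 had 2.24 and 1.91. The highest member of all came next in name order among tiles with values, TA39A03, with 2.46 in replicate I and 2.05 in II (2.26 ± 0.29, SD, n = 2). The following tile, TA39A05, had 1.35 and 1.16, so the level block ended there.

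The other tiles of TA39 were scattered. In rows B to D, 22 tiles had a mean of 0.47 ± 0.131, with the lowest at -0.72 in replicate I and -0.46 in II, both at TA39C10. In rows E to H, 14 tiles had a mean of 0.96 ± 0.141 (SD, n = 2). Among these TA39G04 had 2.28 in replicate I and 1.92 in II, and the next well, TA39G05, had 0.43 and -0.22. Neighbouring wells on this plate could thus differ widely in both replicates.

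**Figure D3:**
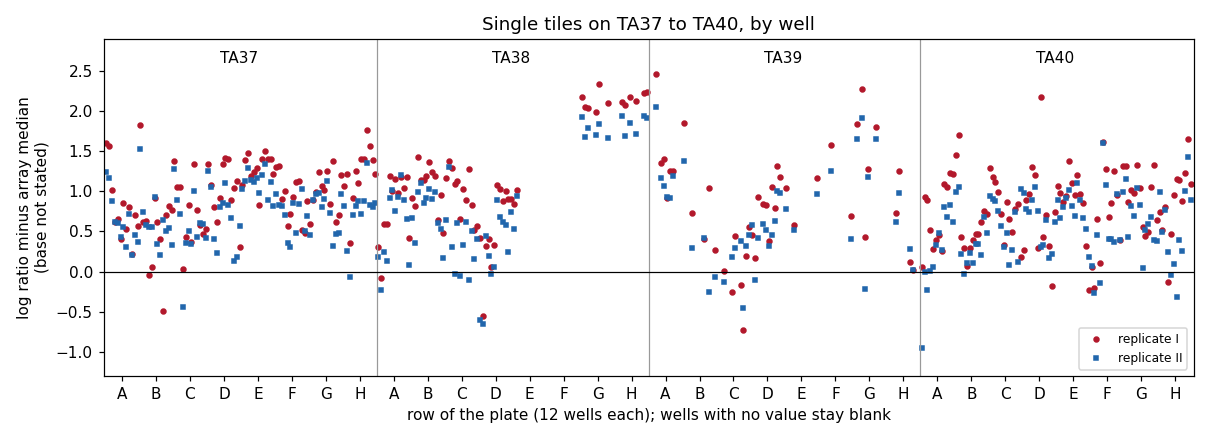
Single tiles of TA37 to TA40 by well, for replicates I (circles) and II (squares), as log ratios minus the array median, where wells with no value stay blank. The 12 tiles of rows G and H on TA38 sit between 1.67 and 2.33, above all tiles of rows A to D, and the sparse tiles of TA39 scatter.

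Called tiles followed the plate levels. limma with Benjamini-Hochberg adjustment over all 21743 tiles (adjusted p at most 0.05, n = 2) called 621 members higher (40.2%), where 8.24% of all tiles were called higher. It called 5 members lower (0.324%), where 3.88% of all tiles were called lower. The plates were picked on this same contrast, so nothing is read from these shares. The calls also depended on the scale of the replicates: at equal median absolute deviations limma called 8 members higher and 0 lower, with 887 and 13 at an unadjusted p under 0.05. By size alone, 216 members (14%) exceeded the median by more than 1 in each replicate, where 2.83% of all tiles did.

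The share of tiles called higher ran from 3.12% on TA36 to 67.7% on TA43. It was above 50% on 6 plates, TA37, TA38, TA42, TA43, TA47 and TA51. The called tiles mostly stood side by side: 548 of the 621 were in 108 runs of at least 2 next wells, and 73 stood alone. With 40.2% of members called, part of this would arise in any order, and grouping beyond that was not tested. The longest run had 31 tiles, from TA43F07 to TA44A01, and averaged 1.22 in replicate I and 1.05 in II. A run of 21 tiles from TA42A08 to TA42C04 had 1.10 and 0.95, with an SD between tiles of 0.0992. Tiles above 0 in both replicates made up 81.9% of members, where 33.6% of all tiles were above 0 in both. At such a share most of them have a like neighbour in any order, so their runs are not read as grouping. These runs were longer: 1207 of 1265 such members were in runs of at least 2, and 39 runs had at least 10 tiles. The longest had 100 tiles, from TA50D03 to TA51D06, with means of 0.88 and 0.64. How finely the stretch is divided thus depends on the threshold.

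High rows recurred along the stretch. Of 124 rows in which all 12 wells had a value, 5 had a mean above 1 in both replicates: row E of TA37, row A of TA41, row G of TA43, row B of TA45 and row F of TA47. Their means over the replicates lay between 1.14 and 1.19. Rows with a mean under 0 in both replicates numbered 3, row H of TA35, row B of TA36 and row B of TA46. Position on the plate moved with the level to a small extent: the 12 columns had means between 0.56 and 0.68 over the stretch, and the 8 rows between 0.54 (row D) and 0.76 (row F). The part of plate position in the results was not tested.

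**Figure D4:**
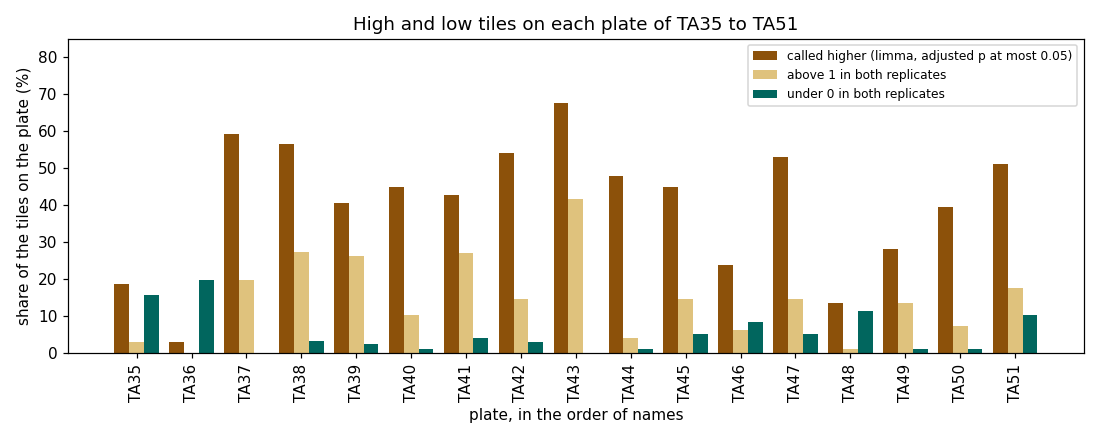
Share of the tiles on each plate of TA35 to TA51 that limma called higher (adjusted p at most 0.05), that lay above 1 in both replicates, and that lay under 0 in both replicates, in percent. TA43 has the largest share called higher, 67.7%, and TA36 the largest share under 0 in both replicates, 19.8%.

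Tiles under the array median were few inside the stretch. In both replicates 87 members (5.63%) lay under 0, where 33.6% of all tiles did, and no member lay more than 1 under the median in both, where 0.419% of all tiles did. TA35 and TA36 held 34 of the 87, and TA46, TA48 and TA51 held 29. TA35, TA36, TA46 and TA48 are the plates with the lowest medians. TA51, however, held 10 such tiles at a median of 0.76, and TA46 held 8 at 0.42. The part of the plate level in these counts was not tested. The remaining 24 lay on 10 of the other 12 plates, and TA37 and TA43 held none.

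The longest low runs were short beside the high ones. With 5.63% of members under 0 in both replicates and 40.2% called higher, shorter low runs would arise in any order. Nothing is read from this contrast. The 7 tiles from TA36B03 to TA36B09 averaged -0.13 in replicate I and -0.41 in II. A run of 6 tiles from TA47H10 to TA48A03 crossed from one plate to the next, with -0.54 and -0.40. Its lowest tile was TA48A01, with -0.83 in replicate I and -0.97 in II, and the tile after the run, TA48A04, had 0.47 and 0.18. This pit began in the row after next from the high row F of TA47, whose mean was 1.30 in replicate I and 1.01 in II.

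The 5 members called lower were also the 5 with the lowest means. TA35G11 had -0.79 in replicate I and -1.20 in II (SD of the 2 values 0.289). TA36C01 had -0.55 and -1.06, and TA36D10 had -1.07 and -0.55. TA48A01 is given above, and TA51G05 had -0.82 and -0.73. Of the 5, 3 lay on the shoulder and 1 on the last plate. On the 3 plates with the highest medians, the lowest tiles were TA43D11 with 0.22 in replicate I and -0.19 in II, TA38D02 with -0.56 and -0.65, and TA37C04 with 0.034 and -0.44. Of these, TA38D02 alone was under 0 in both replicates.

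Some single tiles stood apart from both next wells. Of 1501 members with a value in both next wells, 13 lay at least 0.5 under both neighbours in both replicates, and 7 lay as far above both. The same counts over all tiles are not given here, so these are not read as particular to the stretch. TA44E07 had -0.39 in replicate I and -0.59 in II, where the neighbours had means of 0.59 and 0.96. TA42E03 had -0.63 and -0.80, where the neighbours had 0.60 and 0.21. Some of the 13 stayed above the array median, such as TA43D05 with 0.38 in replicate I and 0.46 in II between neighbours at 1.31 and 1.15. These 3 tiles were chosen after their values were seen.

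Measured against its own plate, 108 members (6.99%) lay at least 0.5 under the plate median in both replicates, and 98 (6.35%) as far above it. Of the 108, 57 were also under 0 in both replicates, and 22 were still above 0 in both. TA45 held 14 of them, TA51 held 13 and TA48 held 10. They formed 75 separate places, 53 of them single wells, and the longest had 5 tiles (TA47H10 to TA48A02). Outside the stretch, by the same rule, TA31 held 7 low tiles, and TA32, TA33 and TA34 held 2 each. TA52 held 11, TA53 held 10, TA54 held 2 and TA55 held 4. The share over all tiles is not given here, so such low tiles are not read as particular to the stretch.

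A low place found in 1 replicate was then read in the other, which had no part in picking it. The lowest 5% of members relative to their plate in replicate I (77 tiles, median -1.06) had a median of -0.65 in replicate II, and 74 of the 77 were under their plate median there. The lowest 77 in replicate II (median -0.93) had a median of -0.65 in replicate I, with 70 of 77 under the plate median. The highest 77 in replicate I (median 0.81) had 0.69 in replicate II, and the highest 77 in replicate II (0.77) had 0.75 in replicate I. In the other replicate, high places thus kept more of their height than low places kept of their depth. Across members the SD in replicate I was 1.09 times that in II, and its part in these readings was not tested. No test of the difference between high and low places was run, since next wells are not independent.

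**Figure D5:**
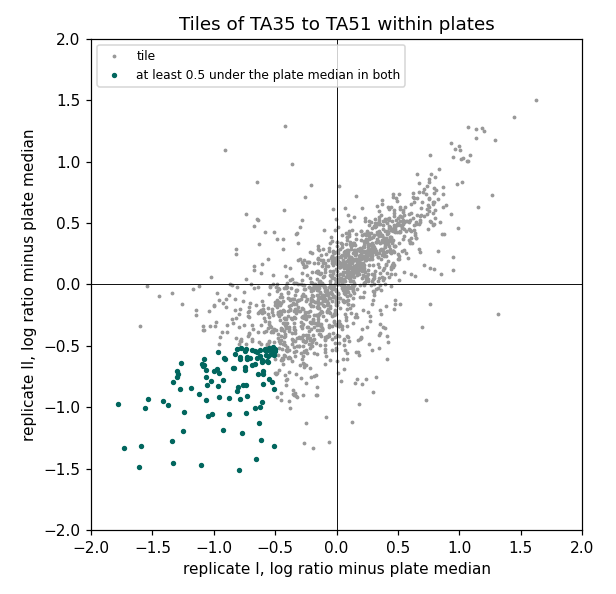
Tiles of TA35 to TA51 as log ratio minus the median of their plate, replicate I on the horizontal and replicate II on the vertical axis, with the 108 tiles at least 0.5 under the plate median in both replicates in green. The cloud is narrow at the upper right and wide at the lower left, and across tiles r was 0.709.

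The replicates also lay closer together at high tiles. Among members with a mean of at least 1, the SD of the difference between replicates I and II was 0.202 (331 tiles), and among those with a mean under 0 it was 0.469 (143 tiles). In the other tiles of set TA the same SDs were 0.462 (186 tiles) and 0.539 (3722 tiles). At a mean between 0.5 and 1 it was 0.279 among members (597 tiles), against 0.515 in the other tiles of set TA (1064 tiles). At like levels the replicates thus differed less inside the stretch. The plates had been picked as high in both replicates, and whether this bears on the differences was not tested.

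Across all members the replicates correlated at Pearson's r = 0.755 (Spearman's rho 0.775), and at 0.709 after each plate's median was taken off. In the other 7784 tiles of set TA these were 0.467, 0.45 and 0.396. By plate, r ran from 0.289 on TA36 to 0.911 on TA38. These correlations are across tiles, which share arrays and neighbours, and are given without a p.

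Next wells resembled each other over a short distance. With plate medians taken off, values 1 well apart correlated at 0.583 in replicate I and 0.558 in II. At 4 wells apart the correlations were 0.236 and 0.248, and at 12 wells apart 0.0413 and 0.0559. In the other tiles of set TA, tiles 1 well apart correlated at 0.424 in each replicate, and tiles 4 apart at 0.11 and 0.0946. Without that step, which removes any likeness shared by a whole plate, members 12 wells apart still correlated at 0.225 in replicate I and 0.191 in II. Next wells also had like differences between the replicates, with r = 0.37 at 1 well apart and 0.0133 at 4 wells apart, against 0.358 and 0.0143 in the other tiles of set TA. The source of these like differences was not tested.

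Beside the other high stretches, picked the same way, TA35 to TA51 stood between them in level. The medians of TA35 to TA51 given above compare with 0.48 in replicate I and 0.32 in II for TA21 to TA30 (886 tiles), and with 0.94 and 0.71 for TC17 to TC30 (1123 tiles). The spread of tiles was alike in all of them, with SDs of the replicate mean of 0.466, 0.463 and 0.453. The ratio of the medians, replicate I over II, was 1.42 in TA35 to TA51, 1.53 in TA21 to TA30 and 1.32 in TC17 to TC30. These differences were not tested.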

How the data were processed

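The values are those of the series' table, read here as scores: log ratios whose base no source gives. What the authors did to make the deposited scores (scanner, background correction, normalization, build) is not given in the sources used here; amplification and direct labelling with Cy3 and Cy5 are recorded per the labels' protocols. Within a dye swap both columns held the same number at all 21743 tiles with values, and they were counted as 1. Medians taken off were -1.42 (replicate I) and -1.15 (II), with no loess or quantile step.

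The design assumed no gene names. limma 3.58.1 (R 4.3.3; intercept model with eBayes) was run over all 21743 tiles with Benjamini-Hochberg adjustment, two-sided, with 1 residual degree of freedom per tile and 21.7 prior degrees of freedom. It was tested on simulated data. Other steps used Python 3.11.15, numpy 2.4.6, pandas 2.3.3 and matplotlib 3.10.9. Members, lists and rules were chosen with earlier results of these data known. Tiles named by rule were the 5 highest and 5 lowest members, the lowest on each of the 3 highest plates, the ends of the longest called and low runs, and members called lower. Rows, the TA38 block, dips, steps and the difference by level were added after values were seen.

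Alternatives were other thresholds, centrings, scalings, priors, summaries, windows and reference tiles, single replicates, and leaving out TA38 and TA39 or TA35 and TA36. Log ratios alone give no measure of signal over background.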

Additional observations from a re-analysis of the deposited data

How the results depend on the processing

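Of 58 alternatives for 10 results, 38 kept a count within 1.5 times or a value within its spread, 20 moved further and 0 reversed. For the correlation of replicates, the spread (0.0207) was the margin of a confidence interval that treats tiles as independent, which they are not. For the other values it was the SD of the 2 replicates. Members called higher by limma (621) became 311 at an adjusted p of at most 0.01, 14 with no centring and 8 with equal median absolute deviations, where 887 still had an unadjusted p under 0.05, against 899 as reported; prior degrees of freedom were 4.25 there. Members called lower (5) became 0 at 0.01 (12 unadjusted at 0.05, limma), 0 with equal deviations (13 unadjusted), 2 with centring on the mode, 858 with no centring and 2 without TA35 and TA36. Uncentred values lie mostly under 0, and 0.01 is the stricter threshold by construction. Elsewhere the cause was not tested. Members above 1 in both replicates (216) were 233 to 486 in single replicates, and those under 0 (87) were 156 to 210, since 1 replicate then has to pass. Members under 0 became 53 without TA35 and TA36, which held 34 of the 87.

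Low tiles within plates (108) became 11 at a margin of 1, 68 against the running median, and 218 to 236 in single replicates. The difference in medians (0.68) ran from 0.553 against the 4 plates on either side to 0.802 in replicate I alone and 0.567 in replicate II alone. The highest plate was TA43 in each setting but means over tiles, which put TA38 first at 0.928. The correlation of replicates (0.755) was 0.709 within plates and 0.732 without TA38 and TA39. That of next wells (0.639, single replicates 0.623 to 0.656) was 0.571 within plates and 0.613 without TA35 and TA36. limma could not be run on single replicates, which leave no residual degrees of freedom. Each log ratio already pairs an IP with its INPUT, and no further paired analysis was possible because the samples form 1 group.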
